A study of Mus musculus with 8 samples.

Results

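The genes described here are 10 mouse genes of mucosal defence: Reg3b, Reg3g, Dmbt1, Retnlb, Lypd8, Pigr, Saa1, Saa3, Lcn2 and Ang4. They were taken by symbol from the 32285 genes of a droplet-based RNA sequencing series of the mouse colon, and each symbol matched 1 gene. Counts are unique molecular identifiers (UMIs), of which each stands for an RNA molecule that was captured and sequenced from its 3′ end. There were 8 libraries from male C57BL/6 mice aged 6 to 12 weeks, 2 per group. Tissue epithelium came from crypts freshly isolated from the colon. Organoid epithelium came from colon organoids, which hold epithelial cells alone and grew in Matrigel in a medium with a Wnt surrogate, CHIR-99021, R-spondin 1 and noggin. Assembloid epithelium came from assembloids, in which organoids were embedded in Matrigel together with cultured primary colon stromal cells and kept without those 4 factors. Assembloid stroma held the cells of assembloids that lacked the surface protein EpCAM. Organoids and assembloids thus differed in the medium and in the presence of stromal cells at the same time. By the study's methods, assembloids also grew on an orbital shaker and were digested with Liberase TL and DNase I before TrypLE. Organoids were dissociated with TrypLE alone, and tissue crypts with TrypLE after release with EDTA. The effects of these differences cannot be told apart here.

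The colon keeps bacteria away from its epithelium with mucus, secreted antibacterial proteins and antibodies. Reg3b and Reg3g encode C-type lectins that bind bacterial cell walls, and Dmbt1 encodes a large scavenger receptor-type glycoprotein that binds bacteria at mucosal surfaces. Retnlb encodes resistin-like molecule beta, a product of goblet cells, and Ang4 an antimicrobial ribonuclease. Lypd8 encodes a protein anchored to the surface of colonocytes that binds flagellated bacteria. Pigr encodes the polymeric immunoglobulin receptor, which carries IgA across the epithelium. Saa1 and Saa3 encode serum amyloid A proteins, and Lcn2 encodes lipocalin 2, which binds the siderophores with which bacteria take up iron. Saa1, Saa3 and Lcn2 are known as acute-phase genes that rise in inflammation.

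Several of these genes lie near each other. On GRCm38, Reg3b (ENSMUSG00000071356) spans chr6:78370657-78373466 on the plus strand and Reg3g (ENSMUSG00000030017) spans chr6:78466269-78468872 on the minus strand, 92803 bases apart. Saa3 (chr7:46711998-46715700) and Saa1 (chr7:46740497-46742980) lie 24797 bases apart on the minus strand of the same chromosome. The promoters of both pairs are shown because the members of each pair differed in level between the groups. The sequences are from RefSeq on GRCm38.p6, which held the promoters of 8 of the 10 genes, and they run 5′ to 3′ on the strand of the gene toward its start site. Stretches that overlap an annotated exon of the gene were left off. The part shown of Reg3b is chr6:78370707-78370860 (plus), of Reg3g chr6:78468875-78469124 (minus), of Saa1 chr7:46742981-46743230 (minus) and of Saa3 chr7:46715701-46715926 (minus). The part of Reg3b lies inside the gene span given above, since the RefSeq start site used lies downstream of the annotated start of the gene.

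Capitals mark matches to 3 motifs, searched on both strands in the 250 bases before each start site: STAT as TTCNNNGAA, C/EBP as TTGCNNAA and NF-kappaB as GGG and TTCC with any 3 bases between them.
Reg3b: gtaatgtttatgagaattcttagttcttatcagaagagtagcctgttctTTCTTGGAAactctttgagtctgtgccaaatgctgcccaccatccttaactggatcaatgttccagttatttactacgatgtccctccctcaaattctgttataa
Reg3g: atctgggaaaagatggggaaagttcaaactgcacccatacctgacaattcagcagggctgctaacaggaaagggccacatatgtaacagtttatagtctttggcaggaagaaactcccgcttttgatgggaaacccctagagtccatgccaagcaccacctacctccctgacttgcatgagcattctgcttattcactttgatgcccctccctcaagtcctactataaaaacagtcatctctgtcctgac
Saa1: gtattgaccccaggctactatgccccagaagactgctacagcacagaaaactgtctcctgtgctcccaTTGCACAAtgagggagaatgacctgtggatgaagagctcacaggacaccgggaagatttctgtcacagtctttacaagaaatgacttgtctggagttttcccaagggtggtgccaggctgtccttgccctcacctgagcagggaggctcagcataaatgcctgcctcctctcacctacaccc
Saa3: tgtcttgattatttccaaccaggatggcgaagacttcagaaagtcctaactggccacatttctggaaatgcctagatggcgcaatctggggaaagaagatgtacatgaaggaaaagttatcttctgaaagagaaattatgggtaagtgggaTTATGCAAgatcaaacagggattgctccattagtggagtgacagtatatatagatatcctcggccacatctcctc

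Over the 250 bases, which include the stretches left off above, Reg3b and Reg3g matched in 175 of 254 aligned columns (68.9%). Saa1 and Saa3 matched in 132 of 263 (50.2%). Unrelated pairs of these promoters matched at a like rate, with 50.4% for Reg3b and Saa3 and 47.9% for Saa3 and Lcn2. The Reg3b promoter holds a STAT motif 129 bases before the start, and the Reg3g promoter holds none of the 3 motifs as spelled above. The C/EBP motif lies 182 bases before the start of Saa1 and, on the other strand, 99 bases before that of Saa3. It also lies 216 bases before the RefSeq start site of Lcn2. That window lies inside the annotated Lcn2 gene (chr2:32384633-32388252). The motif there falls outside the longest stretch without an annotated exon (chr2:32387798-32387850), so it is not upstream of the gene as annotated. The Ang4 promoter holds a STAT motif 192 bases before its start, and those of Lypd8 and Pigr hold none of the 3. None of the windows searched holds the NF-kappaB letters as spelled above, and looser forms of the motif were not searched. The motifs are common, since STAT, C/EBP and NF-kappaB letters occur in 7.02%, 9.56% and 4.65% of 32851 mouse promoters of this length.

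The libraries held 5984 to 32932 barcodes and 99133978 to 191255856 UMIs. A barcode was kept as a cell when it had 500 genes or more and its mitochondrial share was 10% or less, which left 25.4% to 96.1% of the barcodes of a library. A cell passed the epithelial gate when a list of 8 epithelial genes that includes Epcam reached 20 of every 10000 UMIs of the cell and it did not pass a gate for another lineage as well. In tissue 4644 and 4289 of 4692 and 4310 kept cells passed, in assembloids 24474 and 6782 of 29410 and 7722, and in organoids 4855 and 7552 of 4872 and 8034. The assembloid epithelial libraries also held 669 and 528 cells that passed a fibroblast gate, and 4066 and 220 that passed the epithelial and another gate and were left out as mixed. After its own filtering, the study reports fewer epithelial cells of assembloids than were kept here, and more of tissue and of organoids. The assembloid stroma libraries held 7942 and 8754 fibroblast-gate cells. Between any pair of libraries, at most 1.07% of the cells of the smaller library shared a barcode with the other. Levels are given below as UMIs per 1000000 UMIs of the same cells (CPM), in the order of replicate 1 and replicate 2. P-values compare libraries. The study calls the libraries of a group biological replicates, and the labels do not say which animal or culture each came from.

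The groups differed throughout the transcriptome, and the members are to be read against that background. The changes come from edgeR's quasi-likelihood test on UMIs summed over epithelial-gate cells, fitted on 19128 genes in all 6 epithelial libraries with Benjamini-Hochberg adjustment over all of them, and a gene is called at an adjusted p under 0.05. Against tissue, assembloids had 27.0% of genes called higher and 23.6% lower, and of the 10 members 2 were higher and 4 lower. Against tissue, organoids had 24.6% of genes called higher and 23.3% lower, and of the members 1 was higher and 7 lower. Against assembloids, organoids had 24.7% called higher and 28.8% lower, with 0 members higher and 6 lower. The median log2 fold change over the members was -0.81, -3.84 and -3.25 in these comparisons, against 0.03, 0.06 and -0.01 over all genes. Lcn2, which had no UMI in tissue, lies above the median at its lower bound as well. The 6 calls between assembloids and tissue became 3 without tissue 2, where 28.3% of all genes were called in either direction. The 8 between organoids and tissue became 4 without organoid 1 (35.3% of all genes), 5 without organoid 2 (42.4%) and 5 without tissue 2 (27.3%). With at most 20% mitochondrial UMIs or every barcode summed, 3 members rather than 4 were called lower in assembloids than in tissue. Of all genes 49.5% and 51.6% were called in these. The first and second comparisons share the tissue libraries, and the third shares libraries with both.

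The fits scale the libraries by the trimmed mean of M-values (TMM), with factors of 1.16 and 1.15 in tissue, 0.819 and 0.945 in assembloids and 0.879 and 1.10 in organoids. CPM carry no such factor, so a fitted change and a ratio of CPM are not the same. Scaled by library totals alone, the median change of all genes was -0.36 between assembloids and tissue, -0.16 between organoids and tissue and 0.15 between organoids and assembloids. That scaling called 3836 genes higher and 6434 lower between assembloids and tissue, where TMM called 5158 and 4508. It called 3610 and 5069 between organoids and tissue (TMM 4698 and 4451) and 5361 and 4763 between organoids and assembloids (TMM 4716 and 5501). Changes of members are therefore relative to the typical gene.

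**Figure D1:**
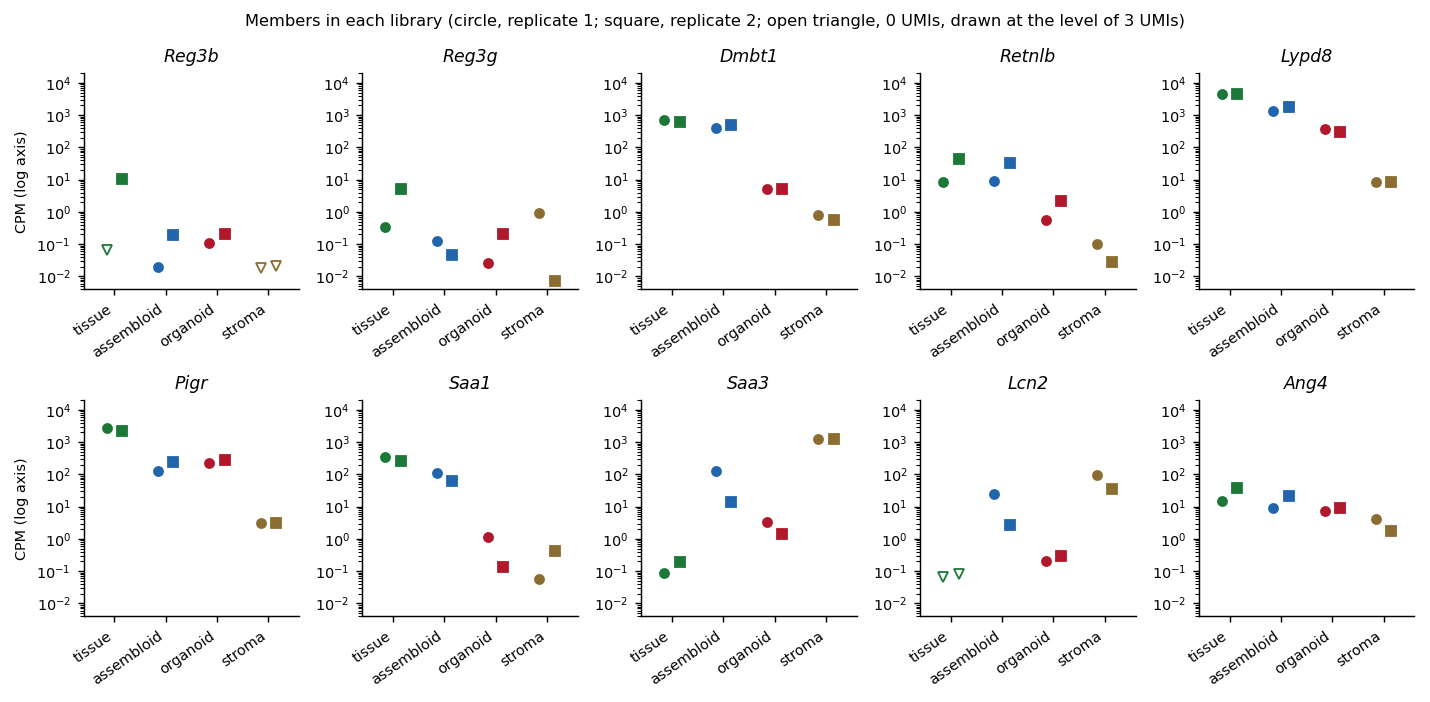
Level of each member in CPM (vertical log axis) in the 2 libraries of each group, over epithelial-gate cells in tissue, assembloid and organoid libraries and over all kept cells in assembloid stroma. Circles are replicate 1, squares replicate 2, and open triangles are libraries with 0 UMIs, drawn at the level of 3 UMIs. Pigr and Lypd8 are highest in tissue, Dmbt1 and Saa1 are low in organoids, and Saa3 is highest in stroma at 1233 and 1292.

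Pigr, the IgA transporter, was high in tissue and low in both cultures. Its level was 2699 and 2238 CPM in tissue, 124 and 238 in assembloids and 225 and 285 in organoids. The tissue libraries lay far above the others, and the assembloid and organoid libraries overlapped. The change was -3.40 ± 0.34 (log2, SE, adjusted p = 0.00016) between assembloids and tissue and -3.05 ± 0.33 (adjusted p = 0.00021) between organoids and tissue. Organoids and assembloids did not differ beyond the spread of the libraries, at 0.35 ± 0.31 (adjusted p = 0.36). The difference appeared in the number of cells as well as in the sums. With each cell thinned to 2000 UMIs, Pigr was detected in 95.9% and 94.2% of tissue cells, 18.6% and 30.5% of assembloid cells and 31.8% and 39.2% of organoid cells. In fibroblast-gate cells of the assembloid libraries, which should lack this gene, the thinned share was 2.48% and 3.23%. Before thinning, the median cell had 3655 and 3702 UMIs in tissue, 3672 and 13935 in assembloid epithelium, 35258 and 7365 in organoid epithelium and 6055 and 10651 in the fibroblast gate.

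Lypd8, the flagellum-binding surface protein, followed the order tissue, assembloid, organoid. It stood at 4595 and 4684 CPM in tissue, 1303 and 1746 in assembloids and 378 and 299 in organoids, with no overlap between any of the groups. The changes were -1.22 ± 0.33 (adjusted p = 0.015) between assembloids and tissue, -3.52 ± 0.36 (adjusted p = 0.00014) between organoids and tissue and -2.29 ± 0.34 (adjusted p = 0.00096) between organoids and assembloids. The first of these calls was lost when tissue 1, tissue 2 or assembloid 1 was left out, at -1.26, -1.22 and -1.10.

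Dmbt1, the bacteria-binding glycoprotein, was near its tissue level in assembloids and almost absent from organoids. It stood at 695 and 635 CPM in tissue, 411 and 509 in assembloids and 5.10 and 5.23 in organoids. The organoid libraries lay far below the other 4. The change was -6.77 ± 0.30 (adjusted p = 5.1e-06) against tissue and -6.62 ± 0.30 (adjusted p = 1.9e-05) against assembloids. Between assembloids and tissue the value was -0.14 ± 0.23 (adjusted p = 0.63) under TMM and -0.53 ± 0.22 (adjusted p = 0.059) scaled by library totals alone. Thinned shares of cells with Dmbt1 were 49.1% and 51.9% in tissue, 49.3% and 51.5% in assembloids, and 1.07% and 1.01% in organoids. The thinned share in fibroblast-gate cells of the assembloid libraries was 7.43% and 6.84%.

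Saa1 behaved much like Dmbt1 in organoids and lay between in assembloids. It stood at 350 and 258 CPM in tissue, 113 and 63.9 in assembloids and 1.14 and 0.132 in organoids. No libraries overlapped between groups. The change in organoids was -8.47 ± 0.95 against tissue (adjusted p = 0.00023) and -7.12 ± 0.90 against assembloids (adjusted p = 0.0005). The value between assembloids and tissue was -1.35 ± 0.69 (adjusted p = 0.13), and scaled by library totals alone it was -1.78 ± 0.55 (adjusted p = 0.017). Saa1 has a close copy in Saa2, and how reads that match both were counted is not known here, so the level of Saa1 alone is uncertain.

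Saa3, in contrast to Saa1, was nearly silent in tissue epithelium and was counted in epithelial-gate cells of assembloids. It had 4 and 7 UMIs in tissue (0.0854 and 0.190 CPM), 20054 and 1525 in assembloids (128 and 14.3 CPM) and 637 and 132 in organoids (3.40 and 1.45 CPM). The groups did not overlap, although the assembloid libraries differed 8.96-fold from each other. In assembloid epithelial cells of at least 2000 UMIs, Saa3 was at 1.74% and 0.325% of its level in fibroblast-gate cells of the same libraries. What part of the epithelial counts came from RNA of other cells was not tested. Over the summed UMIs, Saa3 was 624-fold higher in assembloids than in tissue (95% counting interval 349 to 1250) and 21-fold higher in organoids (11.7 to 42.3). These intervals cover counting error only, and single libraries moved both values. The value for assembloids was 109-fold without assembloid 1, 975-fold without assembloid 2, 432-fold without tissue 1 and 960-fold without tissue 2, and that for organoids ran from 11-fold without organoid 1 to 32.3-fold without tissue 2. The fitted change was 9.54 ± 1.41 (adjusted p = 0.00098) between assembloids and tissue, 4.50 ± 1.40 (adjusted p = 0.028) between organoids and tissue and -5.03 ± 1.02 (adjusted p = 0.0039) between organoids and assembloids. The call between organoids and tissue was lost without either tissue library or either organoid library, at 3.51 to 5.14, and with at most 5% mitochondrial UMIs (6.35), and that between organoids and assembloids was lost without organoid 2, at -4.44. Without assembloid 1 the latter was -2.55.

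Lcn2, which encodes the siderophore-binding lipocalin, had 0 UMIs in both tissue libraries. It had 3757 and 291 UMIs in assembloids (24 and 2.73 CPM) and 38 and 26 in organoids (0.203 and 0.286 CPM). In assembloid epithelial cells of at least 2000 UMIs, Lcn2 was at 1.64% and 0.288% of its level in fibroblast-gate cells of the same libraries. What part of its epithelial counts came from RNA of other cells was not tested. Set against a floor of 3 counts over the tissue group (0.0358 CPM), Lcn2 was at least 429-fold higher in assembloids and at least 6.41-fold higher in organoids. For assembloids the bound was 76.2-fold without assembloid 1, 670-fold without assembloid 2, 189-fold without tissue 1 and 240-fold without tissue 2. For organoids it was 2.82-fold and 3.59-fold without tissue 1 and tissue 2, which raises the floor. It was called between assembloids and tissue (adjusted p = 0.0018) and between organoids and assembloids, at -6.04 ± 1.07 (adjusted p = 0.0029). Between organoids and tissue edgeR gave an adjusted p of 0.11 and DESeq2 gave 0.012.

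Retnlb, the goblet cell product, varied more between libraries of a group than between tissue and assembloids. It stood at 8.62 and 43.6 CPM in tissue, 9.38 and 33.6 in assembloids and 0.571 and 2.12 in organoids. The tissue and assembloid libraries overlapped fully, and the organoid libraries lay below both. Between assembloids and tissue the value was 0.05 ± 0.77 (adjusted p = 0.96). The change in organoids was -4.16 ± 0.90 against tissue (adjusted p = 0.0057) and -4.22 ± 0.90 against assembloids (adjusted p = 0.0049). Both calls were lost without organoid 1, at -3.55 and -3.61. A few cells carried most of these UMIs, since the richest 1% of cells held 68.8% and 84.1% of the Retnlb UMIs of tissue and 83.4% and 83.9% of those of assembloids.

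Ang4, the antimicrobial ribonuclease, differed less between the groups. It stood at 15.4 and 36.5 CPM in tissue, 9.35 and 21.3 in assembloids and 7.28 and 9.28 in organoids. The tissue and assembloid libraries overlapped, and both organoid libraries lay just below all of them. The changes were -0.41 ± 0.42 (adjusted p = 0.45) between assembloids and tissue, -1.43 ± 0.43 (adjusted p = 0.025) between organoids and tissue and -1.02 ± 0.43 (adjusted p = 0.073) between organoids and assembloids. Without tissue 2 the organoid value against tissue was -0.65 and the call was lost, as it was without organoid 1 (-1.41) or organoid 2 (-1.42) and with up to 20% mitochondrial UMIs (-0.99). Ang4 belongs to a family of near-identical ribonuclease genes, so reads may be shared between them.

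Reg3b and Reg3g, the bactericidal lectins, were scarce in every group, and their calls rest on tissue 2. Reg3b had 0 and 390 UMIs in tissue (0 and 10.6 CPM), 3 and 20 in assembloids (0.0192 and 0.188 CPM) and 20 and 19 in organoids (0.107 and 0.209 CPM). Reg3g had 16 and 192 UMIs in tissue (0.342 and 5.21 CPM), 20 and 5 in assembloids (0.128 and 0.0469 CPM) and 5 and 19 in organoids (0.0267 and 0.209 CPM). For Reg3b the tissue libraries lie on both sides of the cultures. Reg3b gave -5.41 ± 1.90 (adjusted p = 0.043) between assembloids and tissue and -4.90 ± 1.82 (adjusted p = 0.055) between organoids and tissue. Reg3g gave -4.49 ± 1.29 (adjusted p = 0.020) and -4.52 ± 1.30 (adjusted p = 0.020). Without tissue 2, Reg3g gave -1.50 and -1.46 and was not called, and Reg3b had no UMI left in tissue. The Reg3b call against assembloids was also lost without assembloid 1, organoid 1 or organoid 2, at -4.49, -5.40 and -5.41, and in DESeq2, at -5.33 (adjusted p = 0.098). The Reg3g call between organoids and tissue was lost without organoid 1 (-3.65) or organoid 2 (-6.22).

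In tissue 2 these lectins were concentrated in few cells. The 390 UMIs of Reg3b lay in 139 of 4289 cells, with 108 in the richest cell and 75.4% in the richest 1%. The 192 UMIs of Reg3g lay in 80 cells. After thinning, 46 cells had Reg3b, 22 had Reg3g and 7 had both, which is 15.2% of the former and 31.8% of the latter. Of the gates described below, Reg3b in tissue 2 stood at 12.5 CPM in colonocytes, 16.1 in other epithelial cells, 2.49 in cycling cells and 1.89 in goblet cells, whereas tissue 1 had none in any of them.

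**Figure D2:**
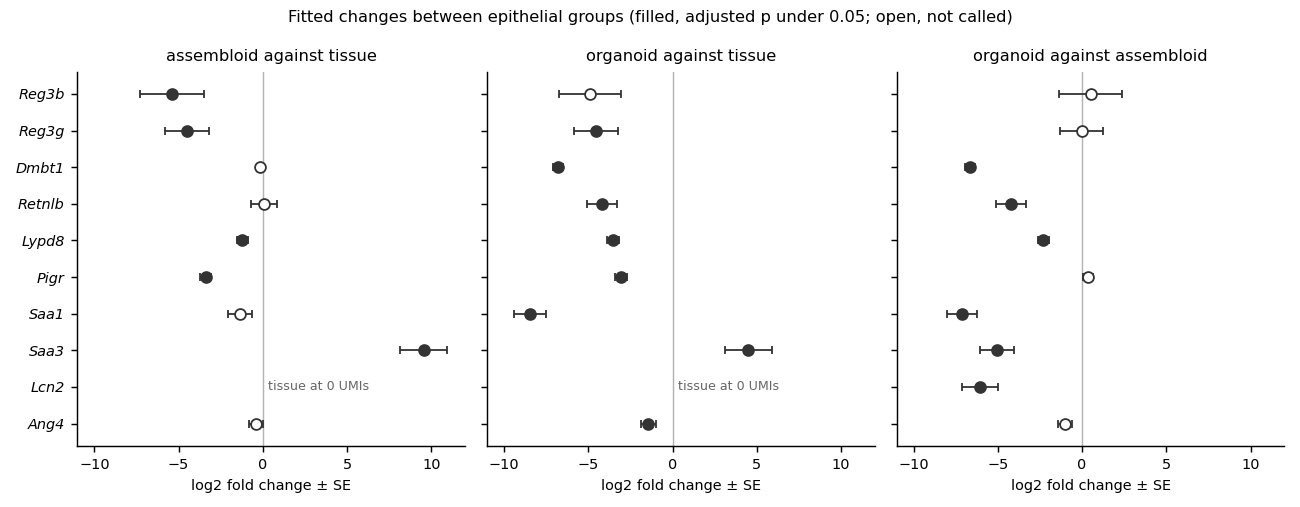
Fitted log2 fold change (horizontal axis) with its standard error for each member in 3 comparisons over epithelial-gate cells, edgeR with 2 libraries a group. Filled points have an adjusted p under 0.05 and open points do not. Lcn2 is left out against tissue, which had 0 UMIs. Dmbt1 lies at -0.14 between assembloids and tissue and under -6 in both comparisons of organoids, and Saa3 lies at 9.54 and 4.50 in the comparisons against tissue and at -5.03 in the other.

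The sums above mix cell types whose shares differed. To look within types, epithelial cells with at least 2000 UMIs were sorted by marker lists that hold none of the 10 genes. A goblet gate used Muc2, Tff3 and 6 other genes, a colonocyte gate used Car1, Krt20 and 6 others, and a cycling gate used genes of cell division such as Mki67. Of all kept cells, the goblet gate held 13.2% and 16.4% in tissue, 1.08% and 4.01% in assembloids and 0.308% and 0.236% in organoids. Epithelial cells of that depth in no such gate are called other epithelial cells. In numbers, the goblet gate held 621 and 707 cells in tissue, 318 and 310 in assembloids and 15 and 19 in organoids, and the colonocyte gate held 408 and 506, 1464 and 791, and 10 and 2. The gate levels were chosen after the data had been seen, and the organoid libraries were too thin for a test in the goblet and colonocyte gates. In sums over a whole library, fewer cells of a type and less RNA per cell cannot be told apart, which the gates address in part.

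In the goblet gate, Retnlb and Ang4 were higher in assembloids than in tissue. Retnlb stood at 27.5 and 113 CPM in tissue and 327 and 442 in assembloids, a change of 3.04 ± 0.55 (adjusted p = 0.0031). Ang4 stood at 39.9 and 107 CPM in tissue and 226 and 262 in assembloids, a change of 2.32 ± 0.40 (adjusted p = 0.0023). Neither gene overlapped between the groups, and both calls held scaled by library totals alone, at 2.46 and 1.73. Of the genes tested in this gate 50.2% were called in either direction, and of 8 members tested 6 were. Pigr fell by 2.06 ± 0.20 (adjusted p = 0.00016), from 2816 and 2266 to 368 and 445 CPM.

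The call of Saa1 in the goblet gate depended on the scaling. Saa1 stood at 53.2 and 62.5 CPM in tissue and 68.8 and 52.7 in assembloids, so that the groups overlapped. TMM gave 0.65 ± 0.21 (adjusted p = 0.031) and library totals alone gave 0.06 (adjusted p = 0.81). Lypd8 gave 0.09 ± 0.18 (adjusted p = 0.71) under TMM and -0.50 (adjusted p = 0.055) under totals alone, from 1288 and 1504 CPM in tissue and 913 and 1059 in assembloids. Dmbt1 gave 0.36 ± 0.23 (adjusted p = 0.21) and -0.23 (adjusted p = 0.40). TMM factors in this gate were 1.23 and 1.23 in tissue and 0.767 and 0.865 in assembloids, and the median change of all genes without them was -0.60. Saa3 and Lcn2, at 0 UMIs in the tissue goblet gate, were at least 179-fold and at least 22.8-fold higher in assembloids, and both were called under either scaling. The assembloid goblet cells also held 258 and 203 UMIs of a list of 8 fibroblast genes. What part of their Saa3 and Lcn2 came from fibroblast RNA was not tested. The bounds were 70.5-fold and 13.2-fold without assembloid 1, 420-fold and 44.0-fold without assembloid 2, 84.7-fold and 10.8-fold without tissue 1 and 94.5-fold and 12-fold without tissue 2. Without tissue 1 neither was called, nor was Saa1 (0.54), which left 3 of 9 members tested, beside 12.6% of all genes in that fit. Saa1 was not called without tissue 2 (0.77) or with the gate levels halved (0.31) either.

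Ang4 was higher in the goblet gate than in colonocyte, cycling and other epithelial cells in each tissue and assembloid library, and so was Retnlb except in tissue 2, where cycling cells held it at 117 CPM against 113 in the goblet gate. In the colonocyte gate Retnlb stood at 1.44 and 3.68 CPM in tissue and 1.32 and 2.97 in assembloids, and Ang4 at 5.78 and 4.47 and at 2.11 and 3.11. Cells that carried both genes were few but more than their shares over all epithelial cells would give. After thinning they were 5 and 12 cells in tissue, where independence would give 0.739 and 1.88, and 30 and 32 in assembloids, where it would give 2.42 and 2.24. In organoids 0 and 1 cells carried both. Independence ignores the gates here, so 2 genes held by the same gate would exceed it. No such value was computed within the goblet gate. The 15 and 19 organoid cells of the goblet gate held Ang4 at 381 and 264 CPM and Retnlb at 22.7 and 204, given as levels with no test.

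In the colonocyte gate the surface and transport genes fell in assembloids. Lypd8 stood at 15386 and 12689 CPM in tissue and 4059 and 4800 in assembloids, a change of -1.24 ± 0.20 (adjusted p = 0.0014). Pigr stood at 2460 and 2073 in tissue and 97.8 and 194 in assembloids, a change of -3.54 ± 0.31 (adjusted p = 6.5e-05). Of the genes tested in this gate 53.4% were called, and of 8 members 4 were, the others being Saa3, higher by 7.51 ± 0.68 (adjusted p = 7.2e-05), and Lcn2, at least 32.0-fold higher (13.3-fold without assembloid 1, 55.8-fold without assembloid 2 and 16.0-fold without either tissue library). The assembloid cells of this gate also held 1112 and 434 UMIs of the fibroblast list. What part of their Saa3 and Lcn2 came from fibroblast RNA was not tested. Saa1 stood at 1782 and 910 CPM in tissue and 738 and 369 in assembloids, with -0.85 ± 0.39 (adjusted p = 0.10). Dmbt1 stood at 1592 and 1198 CPM and at 719 and 752, with -0.50 ± 0.20 (adjusted p = 0.060). Scaled by totals alone, Saa1 (-1.28), Dmbt1 (-0.92) and Ang4 (-0.96) were called too, which made 7 of 8, beside 60.6% of all genes under that scaling. Leaving out a library, which leaves a lone library assumed to vary like the rest, gave 8 of 10 members tested without assembloid 1 (52.0% of all genes), 7 of 10 without assembloid 2 (54.4%), 6 of 10 without tissue 1 (36.7%) and 5 of 8 without tissue 2 (39.3%).

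**Figure D3:**
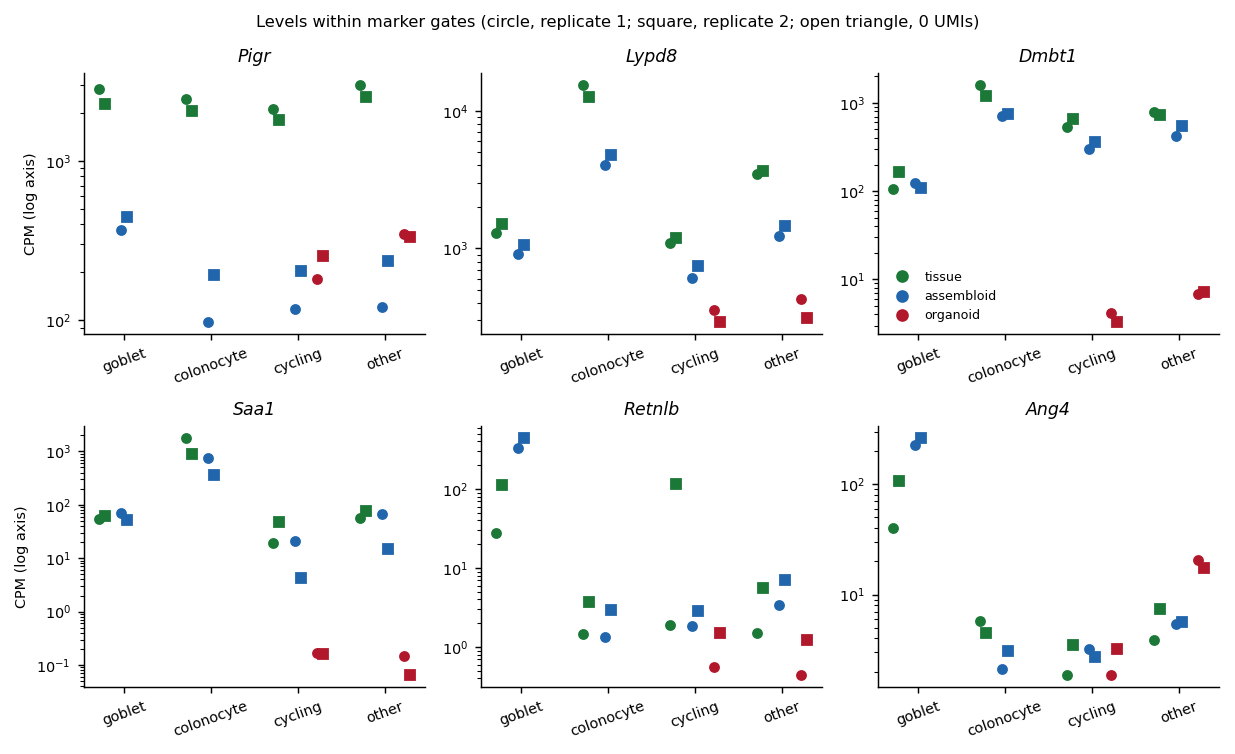
Levels in CPM (vertical log axes, scaled per gene) of 6 members within the goblet, colonocyte, cycling and other epithelial gates, by library. Green is tissue, blue assembloid and red organoid epithelium, circles are replicate 1 and squares replicate 2, and organoids are not drawn in the gates where they had under 20 cells. Pigr is lower in assembloids in all 4 gates, and in the goblet gate both assembloid libraries lie above both tissue libraries for Retnlb and Ang4.

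The change between assembloids and tissue differed between the colonocyte and goblet gates for most members. The test was a term for the gate in assembloids beside a term for each library, and it called 23.8% of 13704 genes. Of 9 members in that fit 6 were called, all with a negative difference. The difference, colonocyte change minus goblet change, was -1.57 ± 0.23 for Pigr (adjusted p = 0.00052), -1.35 ± 0.21 for Lypd8 (adjusted p = 0.0008) and -1.55 ± 0.32 for Saa1 (adjusted p = 0.0044). It was -2.97 ± 0.47 for Ang4 (adjusted p = 0.00074) and -2.89 ± 0.39 for Retnlb (adjusted p = 0.00026). Retnlb was not called with the gate levels halved, at -1.22 (adjusted p = 0.058). Dmbt1 gave -0.89 ± 0.28 (adjusted p = 0.038) and was not called scaled by totals alone (-0.70), with the gate levels doubled (-0.79) or halved (-1.07) or without tissue 1 (-0.36). Lcn2 and Reg3b could not be fitted, since groups were at 0. Saa3, also at 0 UMIs in the tissue goblet gate, was not called (adjusted p = 0.22), and its fitted difference depends on the prior count. This comparison was added after the levels in the gates had been seen.

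**Figure D4:**
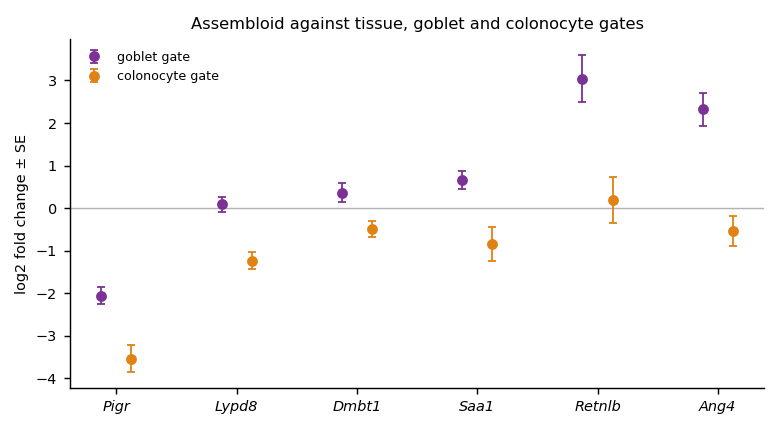
Fitted log2 fold change of assembloid against tissue epithelium (vertical axis) with its standard error for 6 members, within the goblet gate (purple) and the colonocyte gate (orange), 2 libraries a group. For each gene the goblet point lies above the colonocyte point, at 3.04 and 0.19 for Retnlb and -2.06 and -3.54 for Pigr.

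Among cycling cells, which were 172 and 139 in tissue, 3195 and 951 in assembloids and 3211 and 2620 in organoids, the losses in organoids were still seen. Dmbt1 stood at 534 and 649 CPM in tissue, 303 and 359 in assembloids and 4.20 and 3.31 in organoids, a fall of 6.85 ± 0.35 against tissue (adjusted p = 2.1e-07) and 6.47 ± 0.35 against assembloids (adjusted p = 3.8e-07). Lypd8 stood at 1084 and 1186, 604 and 739, and 352 and 292, with -1.38 ± 0.29 (adjusted p = 0.0045) between organoids and tissue, not called without tissue 1 (-1.34) or tissue 2 (-1.28). Pigr stood at 2113 and 1813, 117 and 204, and 181 and 252 CPM. It fell by 3.18 ± 0.32 in assembloids (adjusted p = 2.3e-05) and by 2.78 ± 0.31 in organoids (adjusted p = 6.5e-05) against tissue. Saa1 fell by 7.15 ± 0.83 in organoids against tissue (adjusted p = 8.9e-05).

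Against tissue, 40.0% of genes tested in cycling cells were called in assembloids, with 4 of 8 members, and 32.5% in organoids, with 5 of 8 members. Between organoids and assembloids 44.9% were called, with 5 of 8 members, all lower in organoids, among them Lcn2 (-5.11) and Saa3 (-3.87). Scaled by totals alone, 7 of 8 members and 43.4% of all genes were called between assembloids and tissue. Retnlb was among the calls against tissue, at -4.16 ± 1.09 (adjusted p = 0.011) for assembloids and -5.46 ± 1.13 (adjusted p = 0.0038) for organoids. These rest on tissue 2, where Retnlb stood at 117 CPM, against 1.88 in tissue 1, 1.86 and 2.82 in assembloids and 0.559 and 1.51 in organoids. Without tissue 2 the values were 0.79 and -0.48, and neither was called. With the gate levels halved they were 0.77 and -0.97 and not called, with the levels doubled the assembloid value was -1.003 and not called, and without organoid 1 the organoid value was -4.95 and not called.

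In the other epithelial cells the order of Ang4 differed from that in the whole libraries. It stood at 3.86 and 7.46 CPM in tissue, 5.41 and 5.63 in assembloids and 20.5 and 17.3 in organoids. Organoids lay above all other libraries, by 1.90 ± 0.33 against tissue (adjusted p = 0.0024) and 1.43 ± 0.32 against assembloids (adjusted p = 0.0068). With the gate levels doubled these were 0.52 and -0.13 and not called, and the second call was lost without organoid 1 (1.23). Of the genes tested in these cells 47.0% were called between assembloids and tissue, 38.9% between organoids and tissue and 44.4% between organoids and assembloids, with 6, 6 and 7 of 10 members. Dmbt1 stood at 787 and 738 CPM in tissue, 418 and 541 in assembloids and 6.79 and 7.28 in organoids. Saa1 stood at 55.8 and 76.6, 67.4 and 14.9, and 0.149 and 0.0656. Pigr changed by -3.50 ± 0.35 between assembloids and tissue (adjusted p = 0.00012). Lypd8 changed by -0.93 ± 0.31 (adjusted p = 0.035), a call lost when any tissue or assembloid library was left out, at -0.90 to -0.98, or with the gate levels halved (-0.80).

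In the assembloid epithelial libraries, Saa3 and Lcn2 stood higher in fibroblast-gate cells than in epithelial cells. In fibroblast-gate cells of the assembloid epithelial libraries Saa3 stood at 6664 and 4200 CPM and Lcn2 at 1291 and 944. In fibroblast-gate cells of the assembloid stroma libraries they stood at 1445 and 1337 and at 100 and 36.4. In assembloid stroma 1, Lcn2 was higher in the 42 other epithelial cells, with 503 UMIs or 578 CPM, than in the fibroblast gate, while in assembloid stroma 2 the 14 such cells held 0 UMIs of it. Immune-gate cells of the assembloid epithelial libraries held Saa3 at 1704 and 1693 CPM and Lcn2 at 18.9 and 7.45. In goblet, colonocyte, cycling and other epithelial cells of assembloids, Saa3 ran from 9.45 to 137 CPM and Lcn2 from 1.77 to 24.9, and in each of these gates assembloid 1 was above assembloid 2. The stroma and the epithelium were counted with different versions of Cell Ranger (6.0.1 and 7.1.0), so no test was run between them.

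Fibroblast genes were also present at a low level in epithelial-gate cells, and these values stand beside those of Saa3 and Lcn2. The level in epithelial cells as a percentage of that in fibroblast-gate cells of the same library was 1.11% and 0.224% for the list of 8 fibroblast genes. It was 1.74% and 0.325% for Saa3 and 1.64% and 0.288% for Lcn2. All 3 were thus higher in assembloid 1, and in both libraries the percentages of Saa3 and Lcn2 were somewhat above that of the list. The list itself served to define the gates, which lowers its own percentage, so it is no baseline for genes outside it. The epithelial list defined gates in the same way. The reverse percentages, of epithelial genes in fibroblast-gate cells, were 8.43% and 6.45% for the epithelial list, 10.5% and 8.01% for Dmbt1, 9.02% and 5.84% for Lypd8 and 10.7% and 7.43% for Pigr.

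Some epithelial cells had no UMI of the fibroblast and immune lists, which were 45.3% and 43.4% of the epithelial cells of assembloids. In these, Saa3 stood at 40.6 and 16.0 CPM and Lcn2 at 7.54 and 1.95. The lists catch few UMIs of a cell, so a count of 0 does not mark a droplet free of RNA from other cells. In tissue the same choice gave 0.0913 and 0.199 CPM for Saa3 and 0 for Lcn2. Fitted on such cells, Saa3 gave 8.09 between assembloids and tissue and was called, as was Lcn2. What part of the epithelial Saa3 and Lcn2 came from RNA of other cells in the droplets was not tested beyond these values. Saa3 and Lcn2 met in the same epithelial cells in assembloid 1 after thinning, in 544 cells where independence would give 154. In assembloid 2 they met in 0 cells where it would give 1.18.

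**Figure D5:**
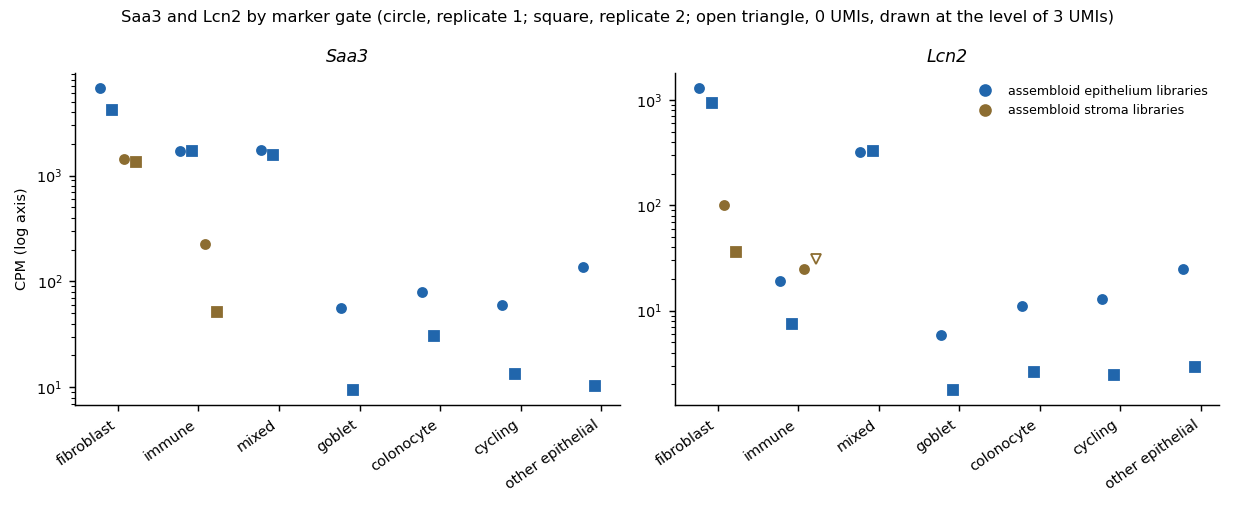
Levels of Saa3 and Lcn2 in CPM (vertical log axes) by marker gate in the assembloid epithelial libraries (blue) and, for fibroblast and immune gates, the assembloid stroma libraries (brown). Circles are replicate 1, squares replicate 2, and an open triangle is 0 UMIs drawn at the level of 3 UMIs. Fibroblast-gate cells of the epithelial libraries hold the highest levels of both genes, at 6664 and 4200 for Saa3.

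The remaining members were scarce in the stroma. Over all kept cells of the stroma libraries, Dmbt1 stood at 0.816 and 0.580 CPM, Retnlb at 0.0989 and 0.0286, Lypd8 at 8.71 and 8.38, Pigr at 3.12 and 3.09 and Saa1 at 0.0556 and 0.422. Reg3b had 0 UMIs in both, Reg3g stood at 0.896 and 0.00716 and Ang4 at 4.11 and 1.71. The stroma libraries held 72 and 34 epithelial-gate cells and 812 and 38 cells of a squamous gate. Of Reg3g in assembloid stroma 1, 138 UMIs lay in the fibroblast gate and 6 in the squamous gate, and of Lcn2 13626 and 605.

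Other genes of mucosal defence were taken from lists of 45 effectors, 52 receptors and regulators and 24 cytokines and signals from other cells, which share no gene with the members. Lyz2, Zg16, Ceacam20 and Spdef of these lists also served in gates. Between assembloids and tissue, 13 of 37 effectors tested were higher and 15 lower, with a median log2 fold change of 0.22. Of all genes, 27.0% were higher and 23.6% lower. Mptx1, a pentraxin of the gut epithelium, fell from 9106 and 12431 CPM to 0.0128 and 0.0469, and Gsdmc4, a gasdermin, from 506 and 560 to 1.57 and 2.15. Slpi, a secreted protease inhibitor, rose from 3.03 and 2.93 to 60.6 and 208. Lyz2, the lysozyme of macrophages and a marker of the immune gate, rose from 0.171 and 0 to 21.7 and 13.7. The assembloid epithelial libraries held 131 and 161 immune-gate cells, and what part of the Lyz2 came from their RNA was not tested. Between organoids and tissue 8 effectors were higher and 17 lower (median -0.90), beside 24.6% of all genes higher and 23.3% lower. Between organoids and assembloids 8 were higher and 21 lower (median -1.68), beside 24.7% and 28.8%. Zg16, a goblet cell lectin, stood at 131 and 248 CPM in assembloids and at 0.576 and 0.824 in organoids. Lyz1 and Nox1 were higher in organoids than in assembloids, by 6.79 and 2.41. Against tissue, Nos2 and Clu were higher in organoids by 3.49 and 2.61, while Gsdmc2 and Mptx1 were lower.

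Of 51 receptors and regulators tested, 11 were higher and 16 lower in assembloids than in tissue, with a median of -0.04. Of all genes, 27.0% were higher and 23.6% lower, so the share of the list called (52.9%) was near that of all genes. Nfkbia, an inhibitor of NF-kappaB that this factor itself induces, rose by 3.01 ± 0.30 (adjusted p = 0.00015), from 76.6 and 80.8 to 478 and 484 CPM. Tnfaip3, another such inhibitor, rose by 2.36 ± 0.20, from 13.7 and 16.1 to 54.1 and 62.6, and in organoids it was at 10.0 and 15.9. Atoh1, a transcription factor of secretory cells, fell by 4.50 ± 0.40, and Il6ra, a subunit of the interleukin 6 receptor, by 4.30 ± 0.42. Il22ra1, a subunit of the interleukin 22 receptor, stood at 8.64 and 10.4 CPM in assembloids and 1.02 and 1.32 in organoids. In organoids 10 of these genes were higher and 17 lower than in tissue (median -0.33), beside 24.6% and 23.3% of all genes. Socs3 and Lifr were higher there by 1.80 and 1.30, and Il6ra and Il18 lower by 4.82 and 4.43. Than in assembloids, 9 were higher and 14 lower in organoids (median -0.08), beside 24.7% and 28.8% of all genes. The higher ones included Lifr and Cebpd, by 2.87 and 1.66.

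Of 17 cytokines and signals tested, 11 were higher and 4 lower in assembloids than in tissue, with a median of 3.35. A gene near 0 in tissue could pass the filter on low counts through its assembloid counts alone. Il6 did so, with 0 in both tissue libraries and 1.48 and 0.844 CPM in assembloids. Such a gene can only come out higher in assembloids, so the count and the median are partly set by the filter. Cxcl2, a chemokine for neutrophils, rose by 8.15 ± 0.54, from 0.149 and 0.353 to 67.6 and 35.1 CPM, and Tnf by 4.46 ± 0.30, from 1.54 and 2.44 to 36.2 and 29.2. Ccl28 and Ccl20, epithelial chemokines, fell by 3.14 ± 0.26 and 1.95 ± 0.34. In organoids 6 were higher and 4 lower than in tissue (median 0.25), with Cxcl5, another chemokine for neutrophils, higher at 32.3 and 27.0 CPM against 0.512 and 1.19, and Cxcl2 higher by 4.89 ± 0.52. Ccl28 was lower, at 6.45 and 5.03 CPM against 71.9 and 70.3. Against assembloids 1 was higher in organoids, which was Cxcl5 by 2.04, and 9 were lower (median -0.81). The counts between assembloids and tissue stand beside 27.0% of all genes higher and 23.6% lower. Those between organoids and tissue stand beside 24.6% and 23.3%, and those between organoids and assembloids beside 24.7% and 28.8%. Cells of other lineages were in the assembloid epithelial libraries, and assembloids were digested differently. The part of either in these genes was not tested.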

How the data were processed

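Single cells of colon crypts, organoids and assembloids were sequenced by the authors with a droplet-based 3′ chemistry. The deposited files hold raw UMI counts per gene and barcode, and per the file headers the epithelial libraries were made with Cell Ranger 7.1.0 and the stroma libraries with 6.0.1. The submitters' processing notes name the build mm10, and whether intronic reads were counted is not given in the sources used here, so stroma and epithelium were not tested against each other. The 10 genes, the marker and defence gene lists and the tests were chosen with earlier results of these data known.

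Barcodes were kept from 500 genes upward when mitochondrial counts made up no more than 10% (25.4% to 96.1% of a library), a filter the study states for stroma. Cells were gated by marker UMIs per 10000, with at least 3 UMIs of at least 2 markers: epithelial 20, fibroblast 20, immune 10, squamous 20, endothelial 10, glia 5, neuron 15, goblet 250, colonocyte 40, enteroendocrine 30, tuft 10 and cycling 15. These levels were set after seeing the data. The goblet level had 124 and 275 tissue cells and 181 and 79 assembloid cells within 1.25-fold of it, the colonocyte level 98 and 210, and 1153 and 256, and the cycling level 84 and 135, 2991 and 467, and in organoids 1317 and 1243 (27.7% and 27.8% of the epithelial cells gated). No doublet caller was run, but cells of 2 lineages were left out. For shares, cells were thinned to 2000 UMIs and shallower cells were left out.

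Counts were summed per library over gated cells and tested with edgeR 4.0.16 in R 4.3.3 (glmQLFit and glmQLFTest, TMM, filterByExpr, Benjamini-Hochberg), all 6 epithelial libraries together. The standard errors printed with fitted changes were derived from the test, as the absolute log2 change divided by the square root of its F statistic. In the goblet and colonocyte gates organoid libraries under 20 cells were left out. All members are named; of the defence lists, the text draws on the 2 highest and 2 lowest called changes per list and comparison with no overlap between libraries and a mean of at least 5 CPM. Alternatives were DESeq2 1.42.0, RLE scaling, no filter on low counts, a replicate block, each library left out, other cell filters and gate levels, and, added after seeing the data, scaling by library totals alone and cells free of fibroblast and immune UMIs. Scripts were tested on simulated data. An exact permutation test of 2 against 2 libraries cannot go below p = 0.333, so none was used. Intervals (95%) and floors (3 counts) cover counting error only. The same replicate number was not taken to pair samples, since the labels do not say whether it does. Deviations from the group means correlated at 0.239, -0.181 and 0.180 over 8567 genes, and 2 libraries a group cannot settle the question.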

Additional observations from a re-analysis of the deposited data

Results flagged for a closer look

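No comparison of the epithelium used the assembloid stroma libraries. In both of them, 8 of the 10 genes were above a floor of 3 UMIs. The share of all genes above that floor was not computed, so the count says nothing of the members as a set. The lower library held Saa3 at 1233 CPM and Lcn2 at 35.8, Lypd8 at 8.38, Pigr at 3.09, Ang4 at 1.71, Dmbt1 at 0.580, Saa1 at 0.0556 and Retnlb at 0.0286. These libraries also held 72 and 34 epithelial-gate cells and 812 and 38 squamous-gate cells.

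The change between assembloids and tissue differed between the colonocyte and the goblet gate for 6 genes by the test of the difference itself. That test called 23.8% of 13704 genes and was added after the levels in the gates had been seen. Dmbt1 was not called scaled by totals alone or with the gate levels doubled or halved, and was -0.36 without tissue 1. Retnlb was not called with the gate levels halved. The colonocyte change minus the goblet change was -2.97 for Ang4, -2.89 for Retnlb, -1.57 for Pigr, -1.55 for Saa1, -1.35 for Lypd8 and -0.89 for Dmbt1. Groups of 2 libraries were too small for a check of single samples that stand apart.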

How the results depend on the processing

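In the whole epithelial gate, Pigr, Saa3 and Lcn2 kept their calls between assembloids and tissue in every alternative run. Within gates Pigr did too, but without tissue 1 Saa3 and Lcn2 were not called in goblet cells, nor Lcn2 in cycling cells, and Lcn2 fell under the filter on low counts with gate levels doubled in goblet and cycling cells and without assembloid 1 in goblet cells. In the epithelial gate, 429 member values kept direction and side of the threshold, 33 newly passed it, 25 no longer did and 20 turned, and within gates these were 554, 46, 34 and 23. The cause was not tested.

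Scaled by library totals alone, 7 members were called in colonocytes and 7 in cycling cells between assembloids and tissue, and these values turned: Retnlb -0.28 overall and -0.23 in colonocytes, Dmbt1 -0.23 and Lypd8 -0.50 in goblet cells, Ang4 -0.0195 in other epithelial cells, all between assembloids and tissue, Ang4 -0.013 in cycling cells between organoids and tissue and Reg3g 0.24 between organoids and assembloids. Other settings also turned uncalled values. Reg3g between organoids and assembloids was 0.010 with no filter on low counts and 0.13 with all lineages kept. Between assembloids and tissue, Retnlb was -0.11 with all lineages kept, -0.61 with at most 5% mitochondrial counts and -0.45 in cells free of fibroblast and immune UMIs, Dmbt1 was 0.22 at the 5% limit and Ang4 0.060 at 20%. With gate levels doubled, Ang4 in cycling cells was -2.56 between assembloids and tissue, -1.06 between organoids and tissue and 1.498 between organoids and assembloids (0.29 with levels halved), Dmbt1 was 0.12 there between assembloids and tissue, and Ang4 was -0.13 in other epithelial cells between organoids and assembloids. With levels halved, Retnlb was 0.77 in cycling cells and Saa1 0.31 in other epithelial cells between assembloids and tissue, where 3 of 8 members and 46.4% of all genes were called.

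Leaving out 1 library moved the genes called between assembloids and tissue from 9666 to between 5383 (without tissue 1) and 10166 (5704 without tissue 2), and between organoids and tissue from 9149 to between 5330 (without tissue 1) and 9859 (5509 without tissue 2). Members called ran from 3 to 6 and from 4 to 10 in these, from 3 to 7 in goblet cells, 5 to 8 in colonocytes, 3 to 7 in cycling cells between organoids and tissue (3 without tissue 2), and in other epithelial cells 5 to 10 between organoids and tissue (10 without assembloid 1 or assembloid 2) and 3 to 8 between organoids and assembloids (3 without organoid 1). Without tissue 2, Reg3b had no UMI left in tissue and its fitted value depends on the prior count: it ran from -7.54 to 6.58 between assembloids and tissue and -5.89 to 7.101 between organoids and tissue, and in other epithelial cells from -7.93 to 6.06 and -5.06 to 7.36. Other ranges that crossed 0 were, between assembloids and tissue, -0.99 to 0.35 for Ang4, -0.99 to 1.65 for Retnlb, -0.037 to 0.19 for Lypd8 in goblet cells, -0.49 to 0.96 for Retnlb in colonocytes, -5.11 to 0.79 for Retnlb in cycling cells and -1.81 to 0.62 for Saa1 in other epithelial cells. Between organoids and assembloids they were -0.41 to 2.65 for Reg3b, -1.72 to 0.96 for Reg3g and -1.93 to 2.42 for Reg3g in other epithelial cells.

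With 1 library left out, the share of all genes called ran from 26.8% to 50.9% between assembloids and tissue and 26.6% to 50.6% between organoids and tissue, from 12.6% to 53.1% in goblet cells, 36.7% to 54.4% in colonocytes and 8.84% to 33.5% in cycling cells between organoids and tissue. In other epithelial cells it ran from 17.1% to 42.0% between organoids and tissue and 28.0% to 42.2% between organoids and assembloids. The members' counts above are to be read beside these.

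With the replicate number as a block, 9509, 9005 and 10052 genes and 7, 9 and 7 members were called between assembloids and tissue, organoids and tissue, and organoids and assembloids. Whether the numbers pair the samples is not known, so these counts say nothing of the strength of an effect. Genes with few UMIs, such as Reg3b and Reg3g, limit what 2 libraries a group can show.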
